A study of Mus musculus with 15 samples.

Results

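The genes described here are the Eph receptors and ephrins, the netrins and their receptors, and the Slits and their Robo receptors. They were found by gene symbol, whatever their level, and came to 41 of the 26263 named genes counted. These are 9 Eph-A and 5 Eph-B receptors, 5 ephrin-A and 3 ephrin-B genes, 4 netrins, the 6 netrin receptor genes Dcc, Neo1 and Unc5a to Unc5d, 2 netrin-G genes, 4 Robo receptors and 3 Slits. Bulk RNA sequencing was done on 15 cultures of mouse neural stem and progenitor cells, taken from the dorsal telencephalon at E12.5 and propagated as neurospheres with EGF and FGF. Kat6b, the gene that the study removed or added, encodes a histone acetyltransferase. KO_B6 denotes 4 libraries of Kat6b-null cells on a C57BL/6 background, and WT_B6 denotes their 3 wild-type libraries. Tg_FvB denotes 6 libraries of cells carrying a Kat6b transgene on a background that mixes FVB and BALB/c, used since transgenic mice did not survive as inbreds, and WT_FvB denotes 2 wild-type libraries of that mixed background. The sources used here do not give the promoter or copy number of the transgene, nor which bases of Kat6b the null allele lacks. Each library carries a litter and an embryo number. All 4 groups came from proliferating cultures in the same medium, so no group was left to differentiate.

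Eph receptors are receptor tyrosine kinases that bind ephrins on neighbouring cells. The ephrin-A proteins are tethered to the membrane by a lipid anchor and the ephrin-B proteins span it, and contact signals into both cells, usually as repulsion. Netrins are secreted cues that attract growing axons through Dcc and Neo1 and repel them through the Unc5 receptors, and Slits are secreted repellents read by Robo receptors. In the developing forebrain the same molecules also set borders between cell populations, guide migrating neurons and act on the division of progenitor cells.

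The libraries held between 12336303 and 62819028 counts in named genes. Kat6b itself had 60.9, 64.1, 66.0 and 62.3 CPM (counts scaled to a common library total, with TMM factors) in KO_B6 and 85.1, 84.1 and 83.5 CPM in WT_B6, so counts remained in the null cells but were lower in every library. It had 268, 265, 266, 229, 139.6 and 289 CPM in Tg_FvB libraries 1 to 6, against 54.4 and 51.8 CPM in WT_FvB. The genotype field and these Kat6b levels place all 6 libraries with the transgene, although their titles call them knock-out. The count columns of the libraries labelled Tg_FvB 5 and 6 are headed as wild type, and on the first principal component, which held 47.9% of the variance, these libraries stood at 3.94 and 4.81 while all other FvB libraries stood at 33.85 or above. One C57BL/6 wild-type library and one FvB wild-type library carry the same litter number and the same embryo number. Several libraries within a group were also nearly alike. The biological coefficient of variation was 0.0172 to 0.0360 between WT_B6 libraries, 0.0317 between the WT_FvB libraries, 0.0268 between KO_B6 2 and 3 and 0.0340 to 0.0504 among Tg_FvB 1 to 3, against 0.115 to 0.276 for the remaining pairs within groups. The nearly alike libraries still differed by more than sampling noise, with a chi-square per gene of 2.10 to 11.4, and were kept as separate replicates. Where they are not independent cultures, the p-values below are too small. Nes, a marker of neural progenitors, averaged 1146 CPM in KO_B6, 848 CPM in WT_B6, 751 CPM in Tg_FvB and 691 CPM in WT_FvB. In KO_B6 it was 1 of 2 markers called higher in a list of 12 for neural stem cells, of which 7 were lower. Emx1, which marks the dorsal telencephalon, was at or near 0 in all groups, with at most 0.128 CPM in a library.

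In all 4 groups the guidance genes ranged from almost silent to abundant, and the abundant ones included both cues and receptors. Levels were compared between genes per kilobase of counted exon, as FPKM. In KO_B6 the highest mean FPKM levels were those of Ntn1 (27.0 ± 3.25), a secreted netrin, Neo1 (22.3 ± 2.05), a netrin and RGM receptor, and Ntn4 (21.8 ± 1.48), a netrin of basement membranes (SD, n = 4). In WT_B6 the order began with Neo1 at 27.1 ± 0.690, the Eph receptor Epha5 at 24.6 ± 0.536 and the Eph receptor Ephb3 at 23.3 ± 0.606 FPKM, followed by Ntn1 at 19.6 ± 0.940, Robo1 at 18.9 ± 0.451 and Ntn4 at 18.4 ± 0.0677 FPKM (SD, n = 3). Robo1 did not differ beyond its spread from Ntn1 above it, and Ntn4 lay a little below Robo1. In the FvB background Neo1 led with 37.2 ± 4.09 FPKM in Tg_FvB (SD, n = 6) and 41.7 FPKM in WT_FvB, and Ntn1 and Ntn4 came next in both groups.

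The 5 guidance genes with too few counts to be tested were Epha6, Epha8, Robo4, Slit3 and Ntn5. Their highest count in any library was 1 for Epha6, 4 for Epha8, 3 for Slit3, 6 for Ntn5 and 11 for Robo4, which is known from endothelial cells. All other results refer to the 36 genes that passed the filter on low counts. Endothelial RNA was scarce throughout, since the summed level of 8 endothelial markers was 3.76 to 4.97 CPM in KO_B6, 3.11 to 3.74 CPM in WT_B6, 3.25 to 4.51 CPM in Tg_FvB and 4.58 to 5.10 CPM in WT_FvB, and Cdh5 was at 0 in both wild types.

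**Figure D1:**
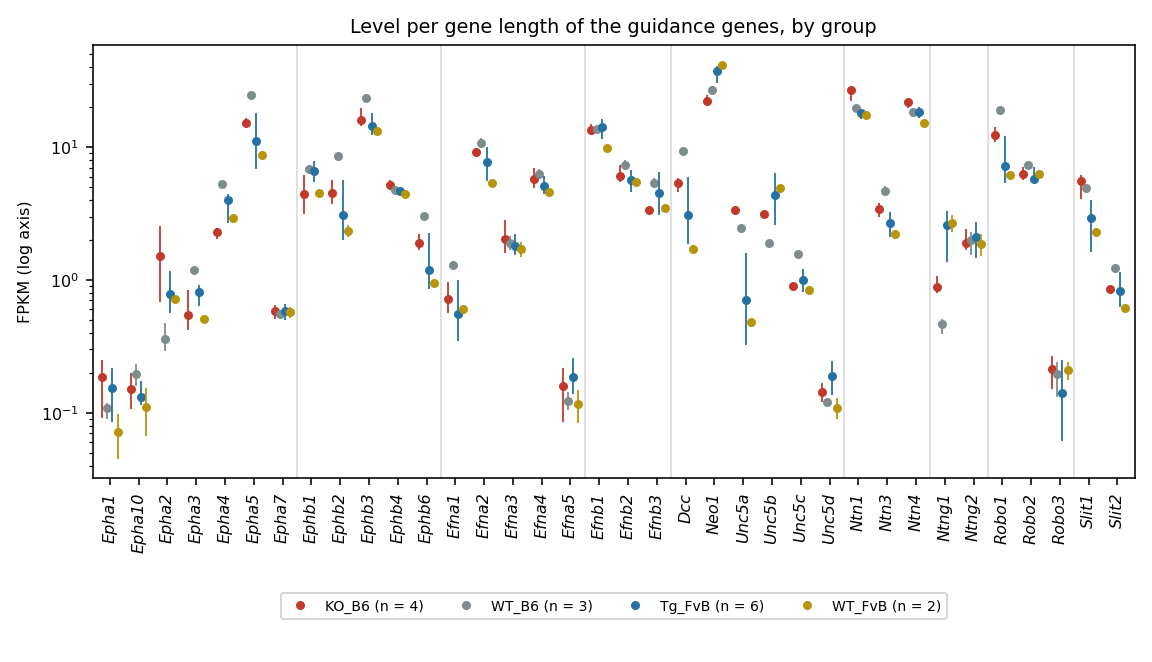
Mean level of each tested guidance gene per gene length (FPKM, log axis), with lines from the lowest to the highest library of each group. Neo1, Ntn1 and Ntn4 are among the highest in every group, and Epha1, Epha10, Efna5, Unc5d and Robo3 lie at the bottom.

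The first comparison asked what loss of Kat6b does to these genes. In KO_B6, 16 of the 36 tested guidance genes fell and 5 rose relative to WT_B6, and 15 passed the test in neither direction. Among those that fell were 7 of the 12 tested Eph receptors, Robo1, Robo2, Dcc and Unc5c, while Epha2, Unc5b, Ntn1, Ntn4 and Ntng1 rose. These 21 calls (edgeR quasi-likelihood test, Benjamini-Hochberg adjusted over all 15261 genes tested, adjusted p under 0.05) are 58.3% of the tested members, against a background of 45.8% of all genes called in this comparison. Only Epha2, Epha3 and Epha4 were called with a more than 2-fold change, against 7.75% of all genes. By direction, 24.8% of all genes were called higher and 20.9% lower. The median log2 fold change of the guidance genes was -0.24, against 0.02 for all genes. KO_B6 and WT_B6 did not overlap for 23 guidance genes, against 56.3% of all genes. In bulk RNA, fewer cells of a type and less RNA per cell cannot be told apart.

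Among the Eph-A receptors 3 fell, 1 rose and 3 were not called. Epha4, a receptor that binds ephrins of both classes, had 12.9, 15.6, 14.5 and 15.2 CPM in KO_B6, against 32.3, 32.8 and 34.2 CPM in WT_B6. All KO_B6 libraries lay below all WT_B6 libraries, and the log2 fold change was -1.19 ± 0.12 (SE; edgeR adjusted p = 1.03e-05), the smallest adjusted p of the guidance genes. Epha3 had 1.91, 1.67, 1.73 and 3.36 CPM in KO_B6, against 4.58, 4.72 and 4.86 CPM in WT_B6. The groups did not overlap, although KO_B6 4 stood nearer to wild type than the other KO_B6 libraries, and the log2 fold change was -1.11 ± 0.21 (edgeR adjusted p = 6.37e-04). For Epha5, an ephrin-A receptor of high level in these cells, KO_B6 had 118, 122, 128 and 109 CPM and WT_B6 had 196, 188 and 192 CPM, again without overlap. Its log2 fold change was -0.69 ± 0.21 (edgeR adjusted p = 0.0134). Epha2, a receptor best known from epithelia, went the other way, with 2.67, 5.37, 5.87 and 10.0 CPM in KO_B6, against 1.85, 1.14 and 1.26 CPM in WT_B6. It was low in both groups and the KO_B6 libraries were spread widely, but none reached down to a WT_B6 library, and its log2 fold change of 2.12 ± 0.38 (edgeR adjusted p = 4.09e-04) was the largest among the guidance genes in this comparison. Epha7, Epha10 and Epha1 had log2 fold changes of 0.05 ± 0.13, -0.39 ± 0.28 and 0.80 ± 0.38 and were not called. Exons of Epha1 and Epha10 overlap genes on the other strand, and whether the counting used strand is not given in the sources used here, so their values are uncertain.

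Of the 5 Eph-B receptors 4 fell. Ephb2, which binds ephrin-B ligands at axon tracts and synapses, had 22.6, 19.2, 17.8 and 26.8 CPM in KO_B6, against 42.4, 38.7 and 40.9 CPM in WT_B6, and its log2 fold change was -0.91 ± 0.28 (edgeR adjusted p = 0.0152). Ephb3 had 81.5, 60.5, 59.5 and 61.6 CPM in KO_B6, against 96.8, 93.9 and 98.9 CPM in WT_B6, and fell by 0.55 ± 0.13 on the log2 scale (edgeR adjusted p = 0.00296). KO_B6 1 was the highest knockout library for Ephb3, and the groups did not overlap for either gene. In KO_B6, Ephb1 had 28.9, 14.9, 14.7 and 23.6 CPM, against 31.5, 32.4 and 31.2 CPM in WT_B6. All 4 lay below wild type, KO_B6 1 only narrowly, with a log2 fold change of -0.63 ± 0.20 (edgeR adjusted p = 0.0168). Ephb6, which lacks kinase activity, had 8.4, 6.86, 6.76 and 6.37 CPM in KO_B6, against 11.5, 11.6 and 11.1 CPM in WT_B6, and a log2 fold change of -0.68 ± 0.25 (edgeR adjusted p = 0.0362). Ephb4, a receptor for ephrin-B2 that is best known from veins, was not called at 0.14 ± 0.07. Its exons overlap a gene on the other strand by 33 bases. Summed over each class, the 9 Eph-A receptors gave 143 to 156 CPM in KO_B6 and 233 to 240.4 CPM in WT_B6, and the 5 Eph-B receptors gave 121 to 163 CPM in KO_B6 and 197 to 203 CPM in WT_B6.

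Few ephrin genes were called. Of the 5 ephrin-A genes 1 fell and of the 3 ephrin-B genes 1 fell, and none rose. Whether the receptors and the ligands differed in this was not tested. Efna1, a membrane-anchored ligand at a low level here, had 1.57, 1.26, 0.937 and 0.928 CPM in KO_B6, against 2.07, 2.05 and 2.29 CPM in WT_B6, with a log2 fold change of -0.87 ± 0.28 (edgeR adjusted p = 0.0204). Efnb3, a ligand known as a midline barrier to axons, had 11.1, 11.4, 10.2 and 10.2 CPM in KO_B6 and 18.9, 16.4 and 16.0 CPM in WT_B6. The groups did not overlap and the log2 fold change was -0.67 ± 0.16 (edgeR adjusted p = 0.00389). Efnb1, the ephrin-B of highest level per length, had 41.7, 48.3, 44.8 and 40.3 CPM in KO_B6 and 46.6, 42.2 and 44.5 CPM in WT_B6, so the groups overlapped (log2 fold change -0.02 ± 0.10). Efnb2 had 31.6, 23.7, 24.2 and 24.2 CPM in KO_B6 and 34.7, 30.6 and 30.4 CPM in WT_B6. Its log2 fold change of -0.30 ± 0.13 missed the threshold (edgeR adjusted p = 0.0804), and KO_B6 1 lay within the wild-type range. Efna2, Efna3, Efna4 and Efna5 had log2 fold changes between -0.24 and 0.37 and were not called. Exons of Efna3 overlap a gene on the opposite strand, which makes its value uncertain.

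Netrins and their receptors split in both directions. Ntn1, the secreted cue that gives the family its name, had 127, 164, 164 and 164 CPM in KO_B6, against 118, 108 and 111 CPM in WT_B6. Every KO_B6 library lay above wild type, with KO_B6 1 the lowest, and the log2 fold change was 0.46 ± 0.08 (edgeR adjusted p = 5.27e-04). Ntn4 had 47.8, 55.4, 55.1 and 52.0 CPM in KO_B6 and 44.2, 44.2 and 44.5 CPM in WT_B6, a small rise of 0.25 ± 0.07 on the log2 scale without overlap (edgeR adjusted p = 0.0103). Ntn3 went down, with 14.7, 18.5, 17.0 and 17.1 CPM in KO_B6, against 25.0, 21.7 and 21.8 CPM in WT_B6 (log2 fold change -0.44 ± 0.13, edgeR adjusted p = 0.0150). Part of its exons overlaps those of a neighbour on the same strand, so the value is uncertain. The netrin-G genes encode lipid-anchored relatives of netrins that bind other partners, the netrin-G ligands. Ntng1 had 4.34, 4.66, 4.64 and 5.84 CPM in KO_B6, against 2.13, 2.80 and 2.71 CPM in WT_B6, and a log2 fold change of 0.92 ± 0.28 (edgeR adjusted p = 0.0154). Ntng2 was not called at -0.06 ± 0.22, and its exons overlap a neighbour on the same strand by 558 bases, so its value is uncertain.

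Among the netrin receptors Dcc, Neo1 and Unc5c fell and Unc5b rose. Dcc, the receptor through which netrin attracts commissural axons, had 47.6, 56.3, 58.4 and 60.5 CPM in KO_B6, against 94.7, 97.0 and 97.2 CPM in WT_B6. The groups were far apart, with a log2 fold change of -0.79 ± 0.26 (edgeR adjusted p = 0.0234). Unc5c, one of the receptors for repulsion, had 7.90, 8.76, 8.26 and 8.54 CPM in KO_B6 and 13.8, 14.7 and 15.2 CPM in WT_B6. Both groups were tight and did not overlap, and the log2 fold change was -0.80 ± 0.12 (edgeR adjusted p = 9.36e-05). Neo1 had 150.0, 181, 174 and 154 CPM in KO_B6, against 195, 205 and 202 CPM in WT_B6, and fell by 0.28 ± 0.09 on the log2 scale (edgeR adjusted p = 0.0232). Unc5b, a receptor for repulsion that is also known from blood vessels, had 19.1, 17.9, 17.9 and 18.8 CPM in KO_B6, against 11.6, 10.6 and 11 CPM in WT_B6. It stood higher in every KO_B6 library, with a log2 fold change of 0.74 ± 0.20 (edgeR adjusted p = 0.00820). Unc5a had 12.6, 13.8, 13.0 and 14.1 CPM in KO_B6 and 10.4, 9.03 and 10.0 CPM in WT_B6. These did not overlap, but the gene was not called at 0.45 ± 0.33 (edgeR adjusted p = 0.281), and its exons overlap a gene on the other strand by 34 bases. The SE draws on the spread in all 4 groups, and Unc5a ranged from 1.30 to 6.34 CPM in Tg_FvB. Unc5d was not called at 0.25 ± 0.22.

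Slit and Robo genes changed only downwards where they were called. Robo1, the most abundant Robo gene in the C57BL/6 cells, had 96.8, 86.0, 83.0 and 107 CPM in KO_B6, against 147, 140.0 and 142 CPM in WT_B6. The groups did not overlap and the log2 fold change was -0.62 ± 0.22 (edgeR adjusted p = 0.0313). Robo2 had 45.1, 49.6, 48.4 and 57 CPM in KO_B6 and 56.4, 59.7 and 61.5 CPM in WT_B6, where KO_B6 4 overlapped wild type. Its log2 fold change of -0.24 ± 0.09 only just passed (edgeR adjusted p = 0.0452), and the call was lost without any of 9 libraries in turn. Robo3, an atypical Robo of commissural neurons, was low and not called at 0.13 ± 0.33. Slit2 had 6.75, 7.09, 6.98 and 6.40 CPM in KO_B6 and 9.81, 9.81 and 9.89 CPM in WT_B6. It was lower in every KO_B6 library, with a log2 fold change of -0.53 ± 0.15 (edgeR adjusted p = 0.0103). Slit1, the Slit of highest level in these cells, had 21.3, 32.5, 31.9 and 30.4 CPM in KO_B6 against 25.9 CPM in each WT_B6 library, and was not called at 0.16 ± 0.20, with KO_B6 1 below wild type and the others above.

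**Figure D2:**
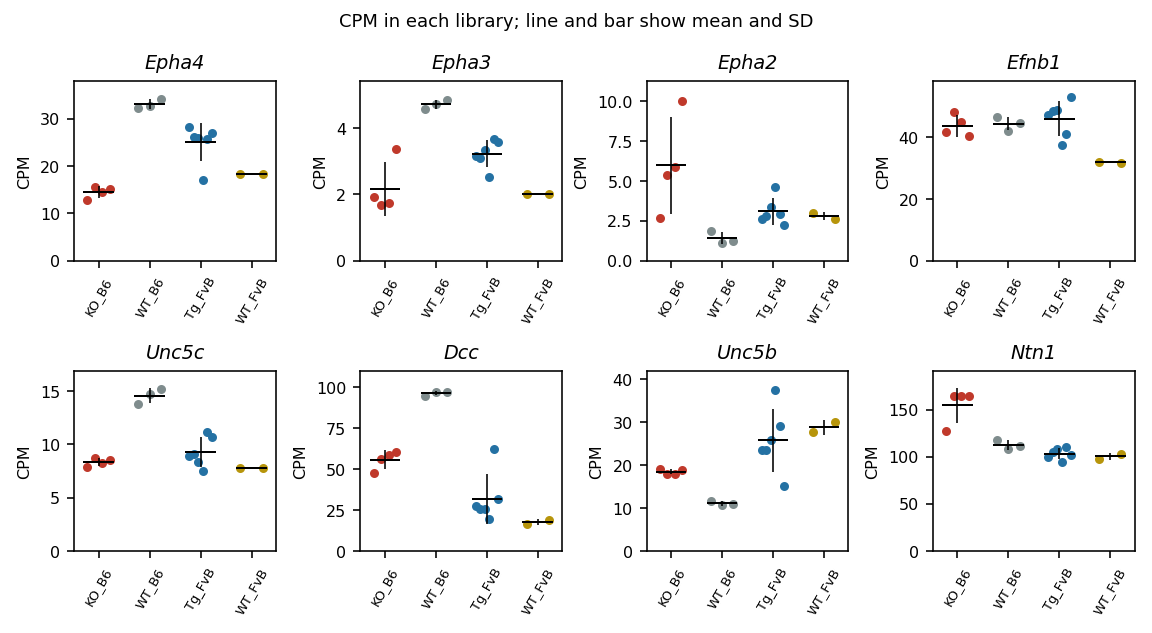
CPM in each library for 8 guidance genes, with the mean (line) and SD (bar) of each group. Epha4, Epha3, Unc5c and Dcc lie lower and Epha2, Unc5b and Ntn1 higher in all KO_B6 libraries than in all WT_B6 libraries, and Efnb1 lies higher in all Tg_FvB libraries than in WT_FvB.

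The calls were also looked at within litters, although the libraries are those that gave the calls, so the order within a litter is largely fixed by that choice. In litter 843 and in litter 929 both KO_B6 libraries lay below the WT_B6 library of that litter for all 16 genes that fell, and above it for all 5 that rose. With litter as a covariate, 12 of the 21 calls were kept, 8 lower and 4 higher, which is 12 of 36 against 34.5% of all genes called in that fit, so the guidance genes were not above the background. The calls of Epha5, Ephb1, Ephb6, Robo1, Robo2, Slit2, Ntn3, Dcc and Ntng1 were lost there. WT_B6 1 was labelled with litter 844 and had no KO_B6 littermate, so the litter fit rests on WT_B6 2 and 4. Whether the lost calls reflect litter or the fewer libraries was not tested. Adding the nearly alike libraries together left 3 KO_B6 libraries and 1 of WT_B6. The guidance gene calls were not kept there, and nearly all calls of other genes were lost too. All 21 guidance genes kept their sign in that fit, and Epha4 had a log2 fold change of -1.24 ± 0.23. Astrocyte marker levels also differed between the groups, since 7 such genes summed to 687 to 788 CPM in KO_B6 and 2043 to 2103 CPM in WT_B6, with 5 lower and 0 higher. Apoe alone averaged 278 CPM in KO_B6 and 1408 CPM in WT_B6, the largest part of the WT_B6 sum. Of 12 neural stem cell markers, which summed to 7843 to 9433 CPM in KO_B6 and 9539 to 9575 CPM in WT_B6, 7 were lower and 2 higher. Of 9 tested neuronal markers, in a list of 10 that summed to 1047 to 1169 CPM in KO_B6 and 1147 to 1158 CPM in WT_B6, 2 were lower and 2 higher. Map2 alone averaged 1068 CPM in KO_B6 and 1061 CPM in WT_B6, so the sum mostly follows that gene. The lower ones were Tubb3 and Dcx, and the higher ones Neurod1 and Snap25. Of 8 markers of the oligodendrocyte lineage, which summed to 2889 to 3407 CPM in KO_B6 and 3107 to 3284 CPM in WT_B6, 3 were lower and 1 higher. Their part in the guidance gene differences was not tested.

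The promoters of the 3 lower and the 3 higher genes with the smallest adjusted p in the knockout comparison, among those for which a window was at hand, are shown as examples of genes that moved in each direction. Ntn1, which had the second smallest adjusted p among the genes that rose, has no window shown. Each window runs from 250 bases before to 50 bases after the transcript start, on the strand of the gene, from RefSeq on GRCm38.p6. The capitals mark the GC box GGGCGG and the CCAAT box CCAAT, searched on both strands, so that they also appear as CCGCCC and ATTGG.
Epha4: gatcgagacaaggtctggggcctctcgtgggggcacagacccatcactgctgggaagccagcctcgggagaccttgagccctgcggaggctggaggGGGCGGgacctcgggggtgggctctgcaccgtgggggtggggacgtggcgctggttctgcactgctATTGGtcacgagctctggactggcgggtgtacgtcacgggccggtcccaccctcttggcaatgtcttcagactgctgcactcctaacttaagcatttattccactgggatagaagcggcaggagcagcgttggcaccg
Unc5c: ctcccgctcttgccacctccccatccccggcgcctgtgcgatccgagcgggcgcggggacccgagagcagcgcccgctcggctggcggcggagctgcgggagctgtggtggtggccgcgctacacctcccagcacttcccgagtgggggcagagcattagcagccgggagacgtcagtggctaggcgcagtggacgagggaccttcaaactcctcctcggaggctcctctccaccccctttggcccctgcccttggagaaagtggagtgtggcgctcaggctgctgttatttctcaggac
Epha3: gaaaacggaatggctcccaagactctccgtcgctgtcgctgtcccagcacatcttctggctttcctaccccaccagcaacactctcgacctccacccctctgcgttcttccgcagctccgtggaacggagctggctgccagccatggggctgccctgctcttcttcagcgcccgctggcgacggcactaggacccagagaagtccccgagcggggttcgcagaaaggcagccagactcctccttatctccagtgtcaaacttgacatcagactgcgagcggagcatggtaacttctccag
Epha2: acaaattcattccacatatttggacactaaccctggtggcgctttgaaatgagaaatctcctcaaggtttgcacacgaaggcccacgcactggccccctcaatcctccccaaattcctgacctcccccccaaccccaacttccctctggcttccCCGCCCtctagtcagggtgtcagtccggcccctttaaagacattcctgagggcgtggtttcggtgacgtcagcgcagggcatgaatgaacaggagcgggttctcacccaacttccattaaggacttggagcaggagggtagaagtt
Unc5b: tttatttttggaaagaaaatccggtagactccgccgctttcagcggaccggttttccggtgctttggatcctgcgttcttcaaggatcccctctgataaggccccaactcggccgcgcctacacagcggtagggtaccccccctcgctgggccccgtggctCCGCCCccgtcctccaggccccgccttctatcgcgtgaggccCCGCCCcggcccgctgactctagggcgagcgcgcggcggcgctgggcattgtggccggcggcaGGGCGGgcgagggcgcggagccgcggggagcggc
Ntn4: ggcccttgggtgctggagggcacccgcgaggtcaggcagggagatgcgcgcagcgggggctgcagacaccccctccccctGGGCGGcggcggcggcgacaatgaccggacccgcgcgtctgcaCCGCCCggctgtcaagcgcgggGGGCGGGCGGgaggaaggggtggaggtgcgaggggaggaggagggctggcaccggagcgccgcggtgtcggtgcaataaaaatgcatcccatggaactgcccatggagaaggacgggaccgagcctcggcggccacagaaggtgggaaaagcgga
The Epha4 window is chr1:77515039-77515338 on the minus strand and holds 1 GC box and 1 CCAAT box. The Unc5c window, chr3:141465314-141465613 on the plus strand, and the Epha3 window, chr16:63864126-63864425 on the minus strand, hold neither. Among the genes that rose, the Epha2 window, chr4:141300971-141301270 on the plus strand, holds 1 GC box, the Unc5b window, chr10:60831532-60831831 on the minus strand, holds 3, and the Ntn4 window, chr10:93640799-93641098 on the plus strand, holds 4, a pair of which overlap. The printed windows hold 17 CpG pairs in Epha4, 24 in Unc5c, 18 in Epha3, 10 in Epha2, 36 in Unc5b and 31 in Ntn4. A GC box was found in 25 of the 36 guidance gene windows available (69.4%), against 35.9% of all 27025 RefSeq windows of this length, and a CCAAT box in 41.7%, against 37.9%. The median guidance gene window had 21.5 CpG pairs, against 7 in all windows, and 64.5% G and C, against 52.7%. A TATA box, TATAAA, occurred in 5.56% of the guidance gene windows, against 14.2% of all windows. A match describes the letters of the window, and no factor's binding was measured.

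Partner genes through which these receptors signal were called about as often as all genes or less, set against the 45.8% of all genes called in this comparison. Of 24 signalling partners of Eph receptors and ephrins, 4 rose and 3 fell in KO_B6. Vav3 and Vav2, exchange factors for small GTPases, rose by 0.87 ± 0.18 (edgeR adjusted p = 0.00130) and 0.54 ± 0.14 (edgeR adjusted p = 0.00523) on the log2 scale, and Itsn1, an exchange factor for Cdc42, fell by 0.33 ± 0.05 (edgeR adjusted p = 7.74e-05). Of 19 Slit and Robo partners 3 rose and 6 fell. Pak1, a kinase downstream of Rac, fell by 0.91 ± 0.29 (edgeR adjusted p = 0.0188), and the GTPase-activating proteins Srgap3 and Srgap1 fell by 0.79 ± 0.10 (edgeR adjusted p = 3.29e-05) and 0.74 ± 0.12 (edgeR adjusted p = 1.77e-04). Of 24 tested netrin, Dcc and Unc5 partners 2 rose and 9 fell. Draxin, a secreted protein that binds netrin and Dcc, averaged 48.4 ± 15.2 CPM in KO_B6 (SD, n = 4) and 231 ± 3.04 CPM in WT_B6 (SD, n = 3). Rgma, a ligand of Neo1, averaged 176 ± 26.5 CPM in KO_B6 and 474 ± 26.0 CPM in WT_B6. The log2 fold changes of Draxin and Rgma were -2.26 ± 0.34 (edgeR adjusted p = 1.11e-04) and -1.43 ± 0.18 (edgeR adjusted p = 4.19e-05), larger in size than that of Dcc.

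The second comparison asked what extra Kat6b does. Only 1 of the 36 tested guidance genes was called in Tg_FvB relative to WT_FvB, the ligand gene Efnb1, against a background of 1.84% of all genes (0.681% higher and 1.16% lower). More than 2-fold changes were called for 0.878% of all genes and for no guidance gene. Efnb1 had 47.2, 48.5, 48.9, 37.6, 41.2 and 53.0 CPM in Tg_FvB, with a median of 47.8, against 32.0 and 31.8 CPM in WT_FvB. All 6 Tg_FvB libraries lay above both WT_FvB libraries, and the log2 fold change was 0.53 ± 0.11 (edgeR adjusted p = 0.0309). Within litter 844, which held both genotypes, Tg_FvB 1 and 2 had the 47.2 and 48.5 CPM and the wild types the 32.0 and 31.8 CPM, while litter 873 was transgenic only. The call was lost with litter as a covariate (edgeR adjusted p = 0.153), in a fit of only the FvB libraries (edgeR adjusted p = 0.150), with nearly alike libraries added together (edgeR adjusted p = 1.00), and without WT_FvB 1, WT_FvB 2, Tg_FvB 1, Tg_FvB 2, Tg_FvB 3 or WT_B6 4. It was kept without Tg_FvB 5 and 6 (0.51 ± 0.10, edgeR adjusted p = 0.0144). No guidance gene was called lower by edgeR or DESeq2, and the 9 genes with an unadjusted p under 0.05 all had positive log2 fold changes. Such a p was given to 2728 of all 15261 genes by edgeR with RLE size factors in place of TMM.

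Without a call, 30 of the 36 genes had a log2 fold change above 0 in Tg_FvB and 6 below, and the median was 0.29, against 0.01 for all genes. Without Tg_FvB 5 and 6 the median was 0.12. The groups did not overlap for 7 guidance genes, against 16.0% of all genes tested. Epha3 ranged from 2.53 to 3.67 CPM in Tg_FvB with a median of 3.26, against 2.02 and 2.00 CPM in WT_FvB (log2 fold change 0.69 ± 0.25, edgeR adjusted p = 0.168). Dcc ranged from 19.2 to 61.9 CPM in Tg_FvB with a median of 26.5, against 16.6 and 19.0 CPM in WT_FvB. Its log2 fold change was 0.85 ± 0.32 (edgeR adjusted p = 0.176), and without Tg_FvB 5 and 6 it was 0.46 ± 0.13 (edgeR adjusted p = 0.0594). Unc5d, a low-level netrin receptor, ranged from 1.25 to 2.24 CPM in Tg_FvB with a median of 1.86, against 1.18 and 0.820 CPM in WT_FvB (0.83 ± 0.26, edgeR adjusted p = 0.111). Ephb1, Ntn4 and Neo1 also did not overlap, with log2 fold changes of 0.55 ± 0.22, 0.29 ± 0.08 and -0.17 ± 0.10. Ntn4 was called without Tg_FvB 5 and 6 (0.30 ± 0.07, edgeR adjusted p = 0.0303), in a fit that called 4.19% of all genes. Without Tg_FvB 4, the shallowest library, 5 genes were called higher, namely Epha4, Efna2, Efnb1, Ntn4 and Unc5d. In that fit 11.6% of all genes were called, so 5 of 36 is near the background. For Epha4 the value was then 0.54 ± 0.08 (edgeR adjusted p = 0.00162), against 0.46 ± 0.14 with it (edgeR adjusted p = 0.104). Of 7 astrocyte markers 4 were lower in Tg_FvB, and the list summed to 1426 to 2018 CPM in Tg_FvB and 2453 to 2470 CPM in WT_FvB. Of 9 tested neuronal markers 2 were higher, Rbfox3 and Neurod1, and the list summed to 879 to 1114 CPM in Tg_FvB and 983 to 1030 CPM in WT_FvB. Most of that sum was Map2, with means of 982 CPM in Tg_FvB and 978 CPM in WT_FvB. Of 8 oligodendrocyte lineage markers 2 were higher and 0 lower, and the list summed to 2165 to 3101 CPM in Tg_FvB and 2400 to 2423 CPM in WT_FvB. Their part in these differences was not tested.

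No signalling partner was called by edgeR in Tg_FvB. As a background, edgeR with RLE size factors in place of TMM gave an unadjusted p under 0.05 to 2728 of all 15261 genes tested. DESeq2 called 4.73% of all genes. Of the 24 Eph and ephrin partners 10 had an unadjusted p under 0.05 and DESeq2 called 1 higher. Of the 19 Slit and Robo partners 5 had an unadjusted p under 0.05 and DESeq2 called 1 higher, and of the 24 netrin partners 4 had such a p and DESeq2 called 2 lower.

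**Figure D3:**
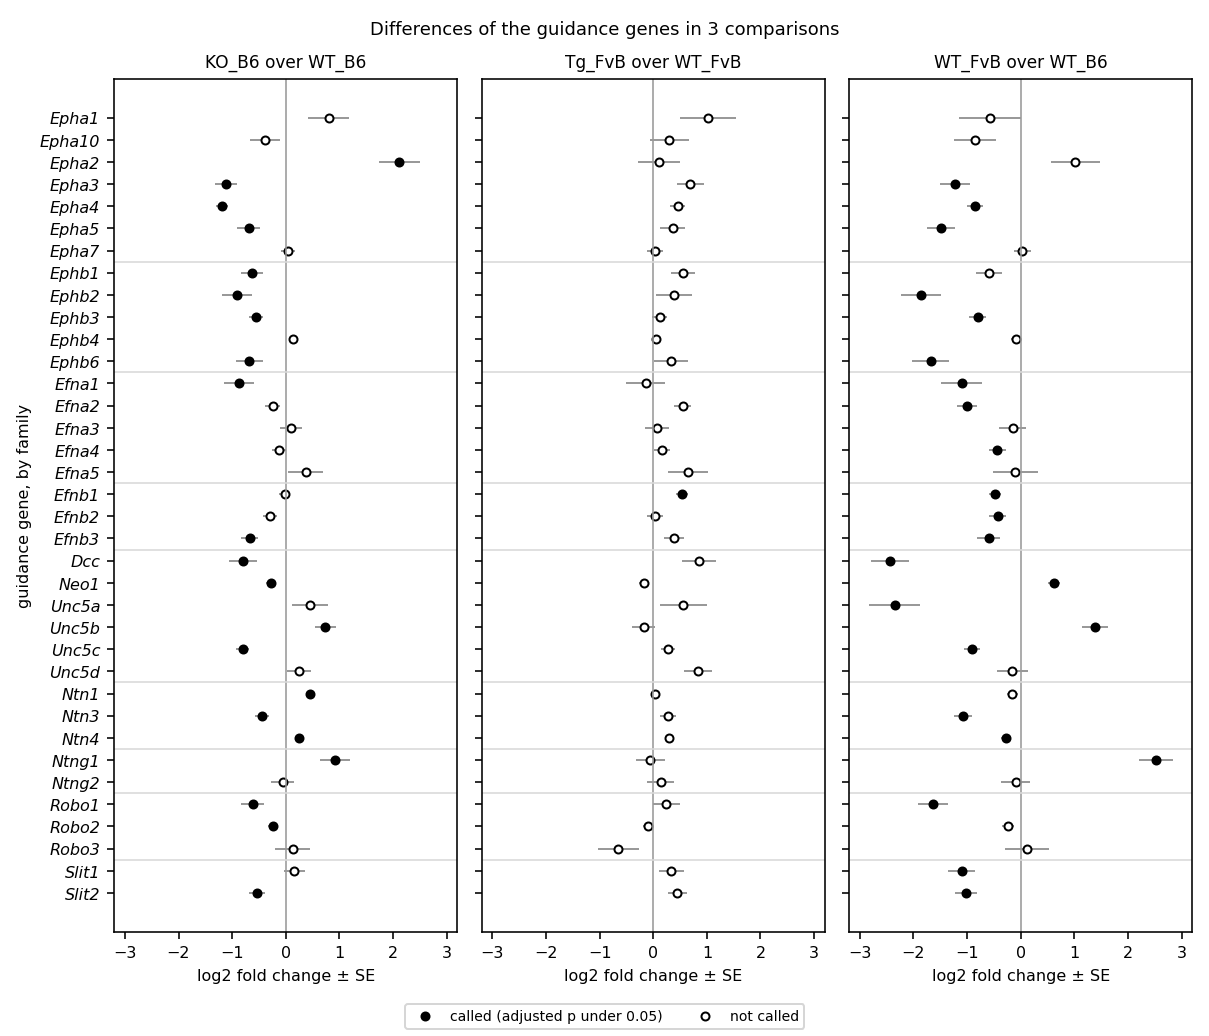
Log2 fold change ± SE of each tested guidance gene for KO_B6 over WT_B6, Tg_FvB over WT_FvB and WT_FvB over WT_B6. Filled points are the 21, 1 and 23 called genes of the 3 panels, where WT_FvB over WT_B6 shares wild-type libraries with each of the other panels.

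Whether the effects of loss and gain of Kat6b differed was tested as the difference between the log2 fold changes of KO_B6 over WT_B6 and of Tg_FvB over WT_FvB, which share no library. Loss was measured only on C57BL/6 and gain only on the mixed background. Loss against gain, the background and the derivation of the cultures therefore cannot be told apart in this difference. It was called for 16 of the 36 genes, against a background of 37.3% of all genes (19.6% higher and 17.8% lower). The difference was negative for 13 of the 16, with a median over the 36 of -0.45, against 0.01 for all genes. It was -1.81 ± 0.33 for Epha3 (edgeR adjusted p = 0.00110), -1.64 ± 0.19 for Epha4 (edgeR adjusted p = 1.16e-04), -1.64 ± 0.41 for Dcc (edgeR adjusted p = 0.00691) and -1.07 ± 0.18 for Unc5c (edgeR adjusted p = 6.58e-04). Epha2, Unc5b and Ntn1 had positive differences of 2.02 ± 0.53, 0.91 ± 0.29 and 0.42 ± 0.12. Ephb1, Ephb2, Ephb3, Epha5, Efna2, Efnb1, Efnb3, Ntn3 and Slit2 made up the other negative calls, between -0.56 and -1.31. With litter as a covariate 6 of the 16 were kept, and 18.8% of all genes were called, so 6 of 36 is not above the background. With nearly alike libraries added together, 1 library was left in each wild type, and no call of any gene was kept. Without WT_FvB 2, 1 guidance gene was called higher and 8 lower of the 38 then tested. In that fit 23.3% of all genes were called, so these calls are near the background. Of the 16 genes that fell in KO_B6, 13 had a log2 fold change above 0 in Tg_FvB (81.2%), against 67.4% of all 3195 genes that fell. Whatever their call in KO_B6, 30 of the 36 guidance genes were above 0 in Tg_FvB. The share among those that fell was therefore near that of all guidance genes. Of the 5 that rose, 3 were above 0 in Tg_FvB, against 37.3% of all 3787 genes that rose.

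The third comparison set the wild types of both backgrounds against each other. Relative to WT_B6, 20 of the 36 guidance genes were lower in WT_FvB and 3 were higher, against a background of 48.9% of all genes called (23.5% lower and 25.4% higher). The median log2 fold change of the guidance genes was -0.58, against 0.02 for all genes. More than 2-fold differences were called for 14 of the 36, against 14.5% of all genes. The mouse background and the separate derivation of the cultures cannot be told apart in this comparison. It shares WT_B6 with the knockout comparison and WT_FvB with the transgene comparison. Markers moved here too, with 5 of 7 astrocyte markers higher in WT_FvB, and 7 of 12 neural stem, 5 of 8 oligodendrocyte lineage and 4 of 9 tested neuronal markers lower. Of the same lists, 0 astrocyte markers were lower, and 2 neural stem, 1 oligodendrocyte lineage and 1 neuronal marker were higher. Their part in the guidance gene differences was not tested.

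Dcc differed most among the genes lower in WT_FvB. It had 16.6 and 19.0 CPM in WT_FvB, against 94.7, 97.0 and 97.2 CPM in WT_B6 (log2 fold change -2.44 ± 0.36, edgeR adjusted p = 1.61e-04). Unc5a had 1.82 and 2.00 CPM in WT_FvB, against 10.4, 9.03 and 10.0 CPM in WT_B6 (-2.35 ± 0.47, edgeR adjusted p = 0.00109). Among receptors of membrane-bound and secreted repellents, Ephb2 had 10.0 and 12.4 CPM in WT_FvB, against 42.4, 38.7 and 40.9 CPM in WT_B6 (-1.86 ± 0.37, edgeR adjusted p = 0.00109). Robo1 had 46.9 and 45.6 CPM in WT_FvB, against 147, 140.0 and 142 CPM in WT_B6 (-1.63 ± 0.28, edgeR adjusted p = 4.27e-04). Ephb6 and Epha5 were lower by more than 2-fold as well, with log2 fold changes of -1.68 ± 0.34 and -1.49 ± 0.26. The ligands Slit1 and Slit2 were lower in WT_FvB, at -1.10 ± 0.25 and -1.02 ± 0.20, so that Slit1 had 12.9 and 11.3 CPM in WT_FvB against 25.9 CPM in each WT_B6 library. The other 12 genes called lower in WT_FvB were Epha3, Epha4, Ephb3, Efna1, Efna2, Efna4, Efnb1, Efnb2, Efnb3, Ntn3, Ntn4 and Unc5c, with log2 fold changes between -1.23 for Epha3 and -0.28 for Ntn4. In the opposite direction, Ntng1 had 17.0 and 12.7 CPM in WT_FvB, against 2.13, 2.80 and 2.71 CPM in WT_B6 (2.52 ± 0.32, edgeR adjusted p = 6.89e-05). Unc5b had 27.6 and 30.0 CPM in WT_FvB, against 11.6, 10.6 and 11 CPM in WT_B6 (1.38 ± 0.24, edgeR adjusted p = 3.80e-04), and Neo1 was higher by 0.62 ± 0.11 (edgeR adjusted p = 5.28e-04). Groups did not overlap for 28 of the 36 guidance genes, all 23 called ones among them, against 78.3% of all genes. With nearly alike libraries added together 1 library was left in each wild type, and no call was kept for a guidance gene or any other gene.

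The 2 comparisons that rest on WT_B6 can be set side by side for single genes. Dcc was at -0.79 in KO_B6 and at -2.44 in WT_FvB relative to the same WT_B6 libraries, and Epha4 was at -1.19 and -0.85 in the same order. Ntng1 was at 0.92 in KO_B6 and 2.52 in WT_FvB, and Unc5b at 0.74 and 1.38. Neo1 had -0.28 in KO_B6 but 0.62 in WT_FvB, and Slit1 had 0.16 in KO_B6 but -1.10 in WT_FvB. A level relative to shared libraries moves with those libraries, so nothing is read from these pairs.

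**Figure D4:**
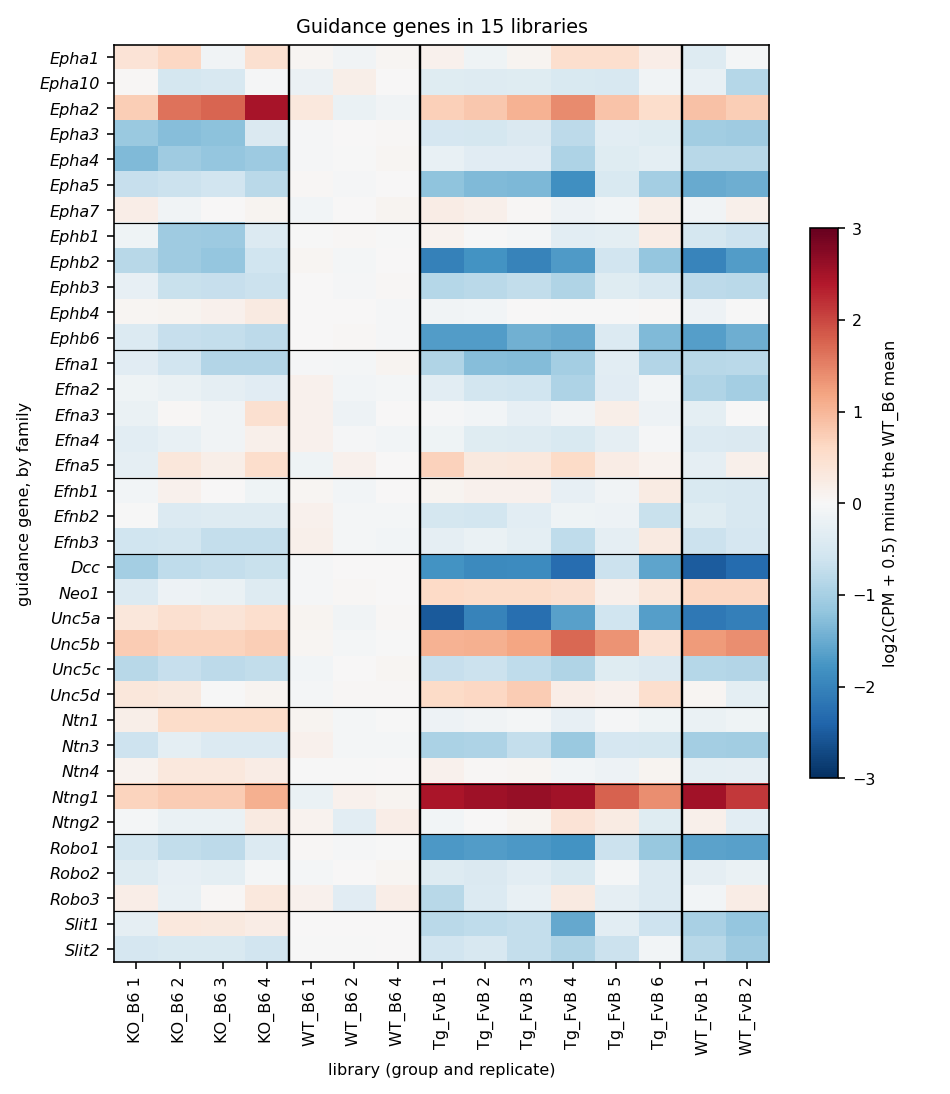
Log2(CPM + 0.5) of each tested guidance gene in each library, minus the mean of that gene in WT_B6; columns are libraries and thick lines part the groups. Dcc, Ephb2, Robo1 and Unc5a are lowest and Ntng1 highest in the FvB libraries, and Tg_FvB 5 and 6 are paler than the other FvB libraries for Dcc, Ephb2, Robo1 and Ntng1.

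The Tg_FvB libraries did not form one level for the genes that separate the wild types. Of the 23 guidance genes that differed between the wild types, Tg_FvB 5 was nearer to the WT_B6 mean than to the WT_FvB mean on the log2 scale for 18 and Tg_FvB 6 for 10, against 7, 5, 4 and 2 for Tg_FvB 1 to 4. These 23 genes were chosen with the same wild-type libraries, and the share among all genes was not computed. Over all tested genes Tg_FvB 5 and 6 also stood apart, at 3.94 and 4.81 on the first principal component. Dcc had 61.9 CPM in Tg_FvB 5 and 31.6 CPM in Tg_FvB 6, against 27.3, 25.4, 25.7 and 19.2 CPM in Tg_FvB 1 to 4. Robo1 had 91.3 and 64.7 CPM in Tg_FvB 5 and 6, against 42.8, 44.1, 43.3 and 40.8 CPM in Tg_FvB 1 to 4. For Epha5 and Ephb2, Tg_FvB 5 had 140.1 and 27.2 CPM, above every other FvB library. Ntng1, which is high in the FvB background, had 9.92 and 7.50 CPM in Tg_FvB 5 and 6, against 16.1, 17.1, 18.1 and 16.9 CPM in Tg_FvB 1 to 4. The libraries that stand apart are those whose count columns are headed as wild type, and Kat6b had 139.6 CPM in Tg_FvB 5, the lowest of the transgenic libraries, and 289 CPM in Tg_FvB 6, the highest. What sets them apart was not tested.

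**Figure D5:**
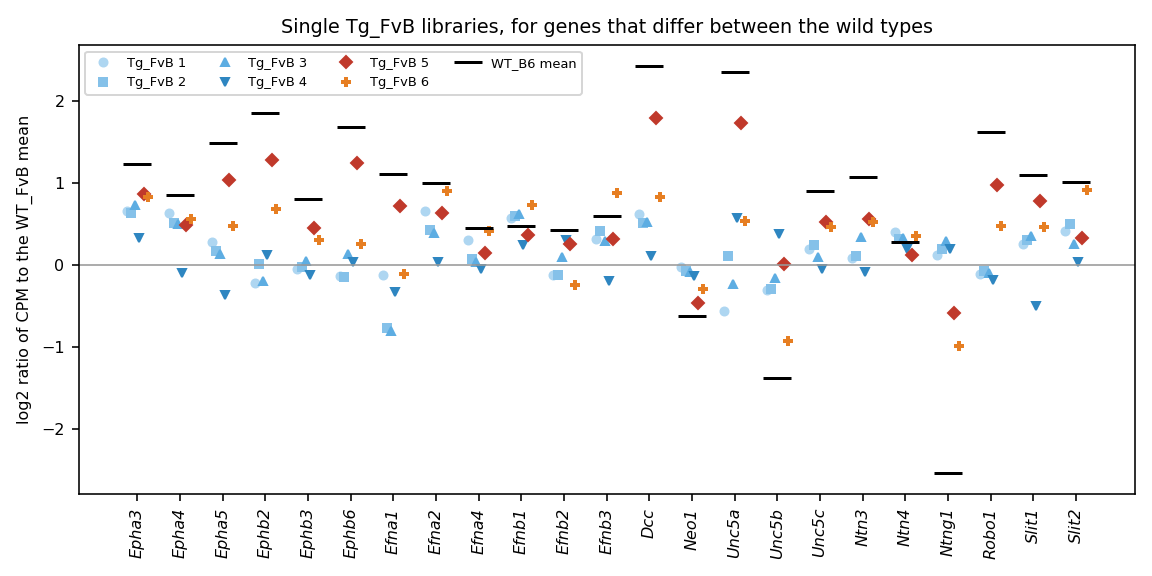
Log2 ratio of the CPM of each Tg_FvB library to the WT_FvB mean, for the 23 guidance genes that differ between the wild types, with the WT_B6 mean as a bar. Tg_FvB 5 (diamonds) and Tg_FvB 6 (plus signs) lie towards the WT_B6 bar for genes such as Dcc, Robo1, Epha5 and Ntng1.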

How the data were processed

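The 15 deposited tables hold whole-number counts of reads per gene, made by the authors with featureCounts on mm10, per the submitters' processing notes. The aligner, versions and strand setting are not stated in the labels. The labels' protocols give total RNA, a TruSeq v2 kit and 66 bp paired-end reads. Each table also deposits a gene length, which was used for FPKM. The 917 entries without a gene name (0.45% to 0.545% of the counts) were left out. Depth was 12336303 to 62819028 counts per library, which limits the precision of low genes.

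Counts were filtered (filterByExpr, minimum count 10, leaving 15261 genes and removing 11002), scaled by TMM, and fitted in 1 model of 4 groups over all 15 libraries with edgeR 4.0.16 in R 4.3.3, by quasi-likelihood tests with Benjamini-Hochberg adjustment. A gene was called at an adjusted p under 0.05. The 4 groups share 1 estimate of the spread per gene, so a wide spread in Tg_FvB also enters the SEs of the knockout comparison. The labels state no test. DESeq2 1.42.0 was an alternative, and the others are named in the closing section. The edgeR step was checked on simulated counts. CPM were computed with TMM library sizes, and FPKM are CPM per kilobase. Means carry SDs and log2 fold changes SEs.

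The guidance genes were chosen by symbol, and partners and markers by fixed lists. All were chosen with earlier results of these data known. Every guidance gene could be named, with libraries given for called genes, and, of each partner list, up to 3 called genes of largest change in the knockout. One result under this rule is not reported here. Gene positions and promoters are from RefSeq, GRCm38.p6, for all 41 and for 36 genes. Exons of 8 guidance genes overlap another counted gene.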

Additional observations from a re-analysis of the deposited data

Results flagged for a closer look

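In groups of 4 and 6 libraries, 72 sets of a guidance gene and a group were searched for a library whose gap to the nearest other library was large relative to the range of its group. Chance flags about 1 in 20 groups, and 8 of the 72 were picked out. KO_B6 1 stood apart in 4 of them. It had 127 CPM for Ntn1, against 164 CPM in each of the other KO_B6 libraries, and 21.3 CPM for Slit1, against 30.4 to 32.5 CPM. It was highest for Ephb3 with 81.5 CPM, against 59.5 to 61.6 CPM, and for Efnb2 with 31.6 CPM, against 23.7 to 24.2 CPM. In each of these genes its level was nearer to or beyond the wild-type level than that of the other knockouts. Tg_FvB 5 was highest for Ephb6 with 8.42 CPM, against 3.2 to 4.25 CPM in the other Tg_FvB libraries, and for Robo2 with 56.6 CPM, against 43.2 to 47.2 CPM. Tg_FvB 6 was highest for Epha10 with 0.947 CPM, against at most 0.721 CPM in the others. Tg_FvB 4, the shallowest library, was lowest for Epha4 with 17.1 CPM, against 25.8 to 28.3 CPM, and lay below both WT_FvB libraries there.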

How the results depend on the processing

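No call for a guidance gene was reversed under the alternatives run. RLE size factors and fits without the low-count filter left every call in place, and DESeq2 kept all calls and raised those higher in Tg_FvB to 4. For that comparison DESeq2 called 4.73% of all genes, against 1.84% by edgeR. Adding nearly alike libraries together took both counts of every comparison to 0. With litter as a covariate, 8 genes were lower in KO_B6, 0 higher in Tg_FvB, and 1 higher and 5 lower in the difference between the effects. Of all genes, 34.5%, 0.0655% and 18.8% were called there, in the same order. In Tg_FvB, 0 genes were higher in a fit of the FvB libraries alone and 2 without Tg_FvB 5 and 6. Of all genes, 0.0687% and 4.19% were called in these fits. In a fit of the KO_B6 and WT_B6 libraries alone, 6 guidance genes were higher and 18 lower in KO_B6, and 53.8% of all genes were called. Leaving out each library in turn gave 4 to 5 genes higher and 11 to 17 lower in KO_B6, 0 to 5 higher and 0 to 0 lower in Tg_FvB, 3 to 4 higher and 15 to 21 lower in WT_FvB, and 1 to 4 higher and 8 to 15 lower in the difference. Of all genes, these fits called 36.8% to 49.7% in KO_B6 and 0.0127% to 11.6% in Tg_FvB. They called 32.2% to 52.1% in WT_FvB and 22.9% to 44.4% in the difference. Of the knockout calls Robo2, Ephb6 and Robo1 were lost most often, without any of 9, 6 and 5 libraries. In the difference the lowest counts came without WT_FvB 2. Replicate numbers did not pair the libraries: the correlations of same-numbered deviations were -0.0237 to 0.0809. With a replicate block, 5 genes were higher in Tg_FvB, where 10.3% of all genes were then called against 1.84% without it, and every other count stayed within 1.5 times that of the unblocked fit. In the blocked fit the transgene effect rests on replicates 1 and 2, the only numbers that Tg_FvB and WT_FvB share. Litter and replicate number were entered within each background, so these fits have no value for the wild-type comparison, nor a fit of only its own groups for the difference, which uses all 4. The cause of these changes was not tested, and the summed fit also held fewer libraries. Litter 873 held no WT_FvB library, and no KO_B6 library was labelled with the litter of WT_B6 1. Within litter 844 both Tg_FvB libraries lay above both WT_FvB libraries for Efnb1, with a log2 ratio of means of 0.58. Counts under 12 in 5 genes allowed no test.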
